A study of Mus musculus with 4 samples.

Results

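The YAP pathway genes described here are 10 genes of the Hippo pathway and its targets: Ankrd1, Ccn1, Ccn2, Amotl2, Lats2, Ajuba, Tead1, Yap1, Wwtr1 and Axl. They were chosen by gene symbol with earlier results of these data known. Among these were the differences of Ankrd1, Ccn1 and Ccn2 between obstructed and sham bladders. The values of the 10 genes in that comparison are therefore given as a description with no p-value. All 10 had a probe, out of 15366 named genes measured, and each gene is represented by its brightest probe, judged on the mean of the 4 arrays. RNA came from the bladders of male mice on a normal diet. Of the 4 single-colour Illumina arrays, 2 held sham-operated mice and 2 held mice whose bladder outlet had been partially obstructed, the latter labelled as taken at 14 days. The labels give no strain, genotype, age or sampling time of the sham group, and they do not say whether an array held the RNA of 1 mouse.

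YAP, encoded by Yap1, and TAZ, encoded by Wwtr1, are transcriptional coactivators that enter the nucleus when cells are stretched, flattened or placed on a stiff matrix, and act there by binding TEAD proteins. The Hippo kinases, of which LATS2 is one, phosphorylate YAP and TAZ and keep them in the cytoplasm. A bladder that empties against raised resistance is stretched and its smooth muscle enlarges, and Ankrd1, Ccn1 and Ccn2 are textbook readouts both of stretch and of YAP with TEAD. Much of the pathway's known regulation acts on the protein and its place in the cell, which arrays of RNA do not measure.

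TEAD proteins bind the letters GGAATG on either strand. Promoter windows from RefSeq (build GRCm38.p6), each the 250 bases before a start site, were found for 8 of the 10 genes. Ccn2 and Tead1 had none. Those of Ankrd1 and Ccn1, which were higher in obstructed bladders, are shown beside those of Amotl2, which was level, and Lats2, which was lower. Capitals mark GGAATG or its reverse complement CATTCC, and each line runs 5′ to 3′ along the gene's own strand.
Ankrd1, minus strand, chr19:36119845-36120094: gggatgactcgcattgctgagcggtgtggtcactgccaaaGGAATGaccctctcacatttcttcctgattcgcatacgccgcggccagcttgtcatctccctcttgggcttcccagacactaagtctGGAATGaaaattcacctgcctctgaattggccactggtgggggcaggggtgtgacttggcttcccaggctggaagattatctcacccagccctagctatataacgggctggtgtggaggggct
Ccn1, minus strand, chr3:145649986-145650235: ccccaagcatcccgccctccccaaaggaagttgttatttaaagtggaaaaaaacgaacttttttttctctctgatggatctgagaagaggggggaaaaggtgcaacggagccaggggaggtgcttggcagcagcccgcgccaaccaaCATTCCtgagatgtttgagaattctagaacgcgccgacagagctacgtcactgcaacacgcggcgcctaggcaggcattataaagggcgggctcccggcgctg
Amotl2, plus strand, chr9:102717554-102717803: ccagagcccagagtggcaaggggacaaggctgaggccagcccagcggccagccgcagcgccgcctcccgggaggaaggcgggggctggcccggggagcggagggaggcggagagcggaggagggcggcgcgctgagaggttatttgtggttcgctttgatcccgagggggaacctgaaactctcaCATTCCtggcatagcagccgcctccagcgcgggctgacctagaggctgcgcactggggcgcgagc
Lats2, minus strand, chr14:57746124-57746373: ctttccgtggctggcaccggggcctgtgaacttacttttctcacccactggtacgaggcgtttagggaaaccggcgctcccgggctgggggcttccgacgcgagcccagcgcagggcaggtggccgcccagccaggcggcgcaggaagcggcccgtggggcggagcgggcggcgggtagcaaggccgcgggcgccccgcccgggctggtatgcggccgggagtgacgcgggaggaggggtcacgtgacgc

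The Ankrd1 window held 2 matches, whose first letters lie 210 and 123 bases before the start site, and the Ccn1 window held 1, at 103 bases. Amotl2 held 1, at 65 bases, and the Lats2 window shown held 0, as did the window of its other annotated start site. Axl and Yap1 held 1 each and Ajuba 2, and Wwtr1 held 1 in each of its 2 windows. The windows of Wwtr1 overlap, and the match is the same stretch counted in each. In all, 8 of the 10 windows of these 8 genes had a match, in 7 genes, against 12.6% of all 32851 windows. Several of these genes are textbook TEAD targets, so the share is a description. The CArG box, which binds the serum response factor SRF, was found in 0 of these windows and in 1.47% of all windows. Matches were thus present in genes whose RNA was higher (Ankrd1, Ccn1) and in genes whose RNA was level (Amotl2, Yap1), and they are letters in a window, not measured binding.

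Of the 10 genes, 3 were at least 2-fold higher in obstructed than in sham bladders, Ankrd1, Ccn2 and Ccn1, and 0 were 2-fold lower. The other 7 differed by between -0.60 and 0.33 on the log2 scale. Among all 15366 genes 0.937% were at least 2-fold higher. In 4 of the 10 genes both obstructed arrays lay above both sham arrays, as in 17.6% of all genes, in 1 gene both lay below, as in 21.6% of all genes, and in 5 the groups overlapped. The median difference of the 10 genes was 0.11, and of all genes -0.02. Because the genes were chosen with this contrast in view, nothing is read from these shares. With 2 arrays a group an exact permutation test of 1 gene cannot give a two-sided p below 0.333, and any spread between arrays may be technical.

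**Figure D1:**
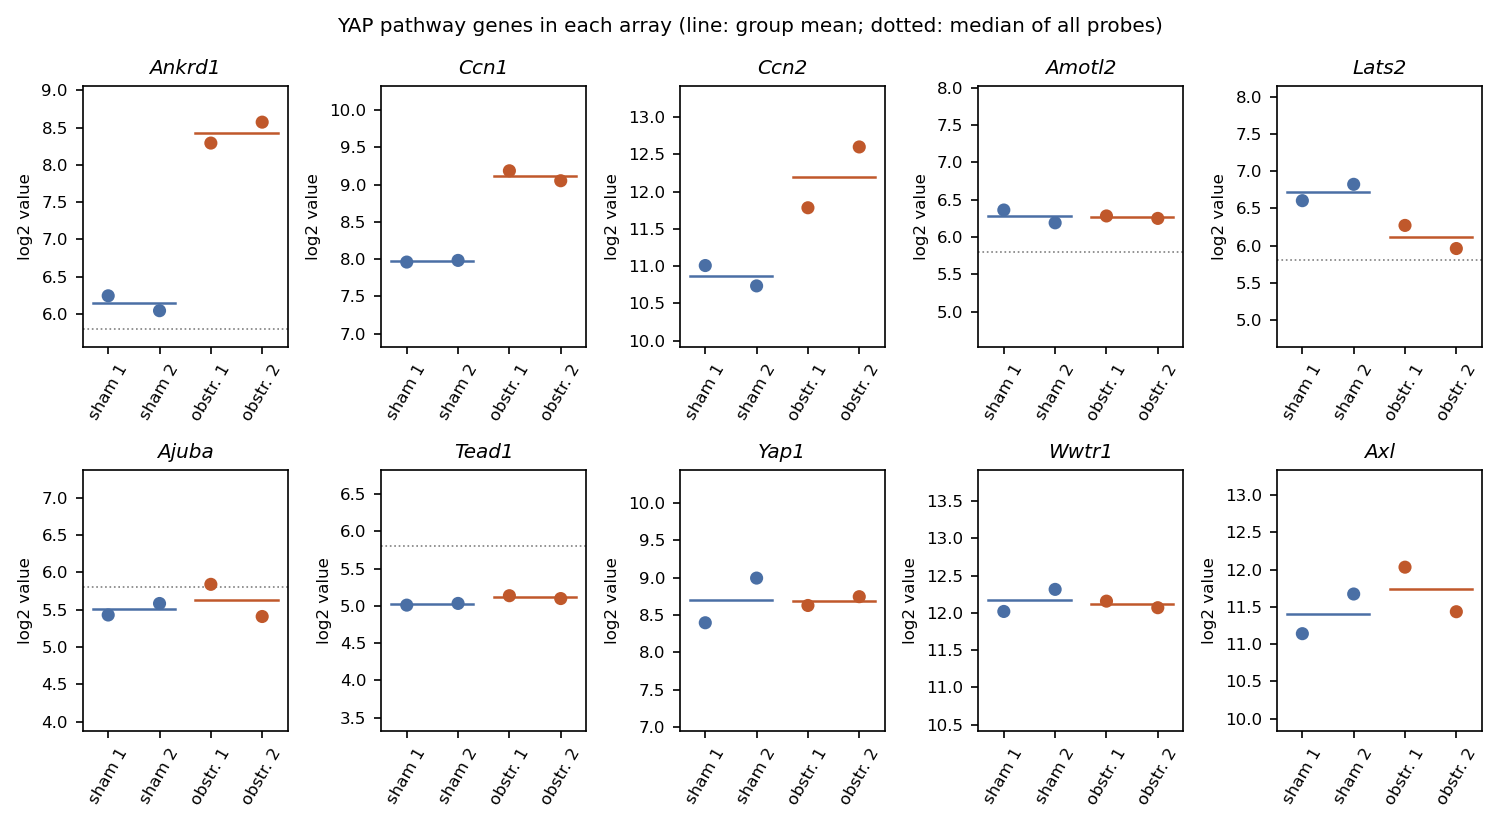
Log2 value (y axis) of each of the 10 genes in the 2 sham arrays (blue) and 2 obstructed arrays (orange), brightest probe of each gene. Every panel spans 3.5 log2 units, horizontal lines are group means and the dotted line, where in range, is the median of all probes, 5.80. The groups lie far apart for Ankrd1, Ccn1 and Ccn2, and Lats2 is lower in both obstructed arrays. In the other panels the groups overlap or, for Tead1, differ by 0.10.

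Ankrd1 encodes a nuclear and sarcomeric ankyrin repeat protein that is induced in stretched heart muscle. Its log2 value was 6.24 and 6.04 in sham and 8.29 and 8.57 in obstructed arrays. The sham arrays were thus only a little above the median of all probes, 5.80, and the nearest obstructed array lay 2.05 above the higher sham array. The difference was 2.29 (SE 0.19), a 4.89-fold higher mean, and ranked 30 among all higher differences. Set against the sham mean, obstructed replicate 1 differed by 2.15 and obstructed replicate 2 by 2.43. With any 1 of the 4 arrays left out it stayed between 2.15 and 2.43.

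Ccn1 and Ccn2 encode secreted matricellular proteins, which bind integrins and matrix and modulate adhesion and fibrosis. Ccn1 measured 7.96 and 7.98 in sham and 9.19 and 9.05 in obstructed arrays, so that the arrays of a group nearly coincided and the groups did not overlap. Its difference was 1.15 (SE 0.19), 2.21-fold. The other probe of Ccn1, dimmer at 5.37 and 5.88 in sham, measured 6.58 and 6.51 in obstructed arrays, a difference of 0.91. Both probes of Ccn1 therefore gave the same direction with no overlap between groups. Ccn2, with 1 probe, measured 11.01 and 10.73 in sham and 11.78 and 12.60 in obstructed arrays. Its difference was 1.32 (SE 0.30), 2.50-fold, with replicate 1 of the obstructed group at 0.91 and replicate 2 at 1.73. The order of the obstructed arrays was thus the same for Ankrd1 and Ccn2 and the opposite for Ccn1.

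Lats2, the kinase that restrains YAP and is itself a YAP target, was the gene of the 10 that was lower in both obstructed arrays. It measured 6.60 and 6.82 in sham and 6.27 and 5.96 in obstructed arrays, a difference of -0.60 (SE 0.17), 1.51-fold lower. Its other probe measured 6.50 and 6.54 in sham and 6.27 and 6.01 in obstructed arrays, a difference of -0.38, again without overlap. All 8 values lay between 5.96 and 6.82, above the median of all probes and not far from it.

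Of the remaining targets and adaptors, Amotl2 and Ajuba were close to level, and the difference of Axl was not resolved. Amotl2, a scaffold of the angiomotin family that holds YAP at junctions and is a feedback target, measured 6.36 and 6.19 in sham and 6.28 and 6.25 in obstructed arrays, a difference of -0.01 (SE 0.14). Axl, the receptor tyrosine kinase for the ligand Gas6, measured 11.14 and 11.67 in sham and 12.03 and 11.43 in obstructed arrays. The Axl groups overlapped, and its difference of 0.33 (SE 0.29) was made up of 0.63 for obstructed replicate 1 and 0.03 for replicate 2. Ajuba, a LIM protein that binds and limits LATS kinases, measured 5.43 and 5.58 in sham and 5.84 and 5.41 in obstructed arrays, with 3 of the 4 values below the median of all probes. Its other probe lay below that median in all 4 arrays, so that both probes were dim.

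Of the coactivators, Yap1 was level. It measured 8.40 and 8.995 in sham and 8.63 and 8.75 in obstructed arrays. The obstructed arrays of Yap1 lay between the sham arrays, with a difference of -0.01 (SE 0.26). Tead1, a DNA-binding partner of YAP, lay between 5.01 and 5.14 in all 4 arrays, below the median of all probes throughout, so that its difference of 0.10 says little about Tead1 RNA.

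Wwtr1 had 3 probes, and they did not give 1 answer. The brightest, probe 101090270, measured 12.02 and 12.31 in sham and 12.16 and 12.07 in obstructed arrays, a difference of -0.05 (SE 0.18). The next, probe 1980458, measured 10.27 and 10.40 in sham and 11.50 and 10.76 in obstructed arrays, a difference of 0.80 (SE 0.28), with both obstructed arrays above both sham arrays. The dimmest, probe 2570341, measured 7.06 and 7.25 in sham and 7.67 and 6.83 in obstructed arrays, with a difference of 0.09 and groups that overlapped. Wwtr1 was thus level on the brightest probe and higher on the next. On the dimmest, 1 obstructed array lay above both sham arrays and the other below both. With all probes averaged the difference of Wwtr1 was 0.28. Which transcripts each probe detects is not given in the sources used here.

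**Figure D2:**
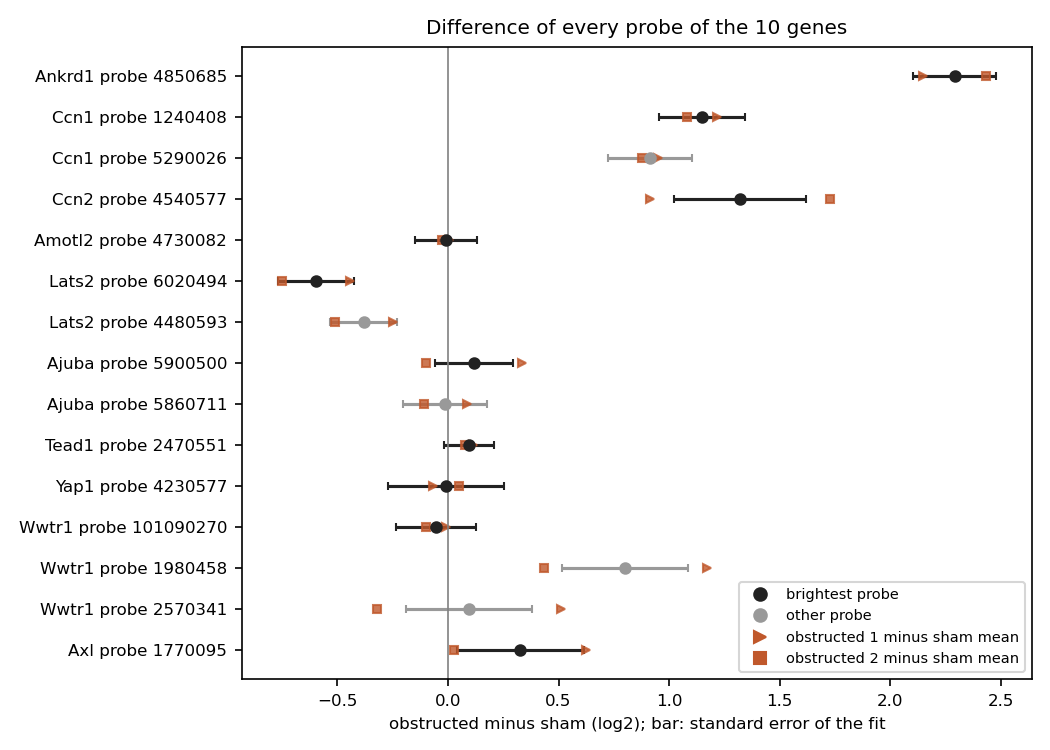
Obstructed minus sham difference in log2 units (x axis) for all 15 probes of the 10 genes, with the standard error of the fit as the bar. Black points are the brightest probe of a gene and grey points its other probes, and orange triangles and squares give obstructed replicates 1 and 2 against the sham mean. The probes of Ccn1 and of Lats2 agree in direction, at 1.15 and 0.91 and at -0.60 and -0.38, while those of Wwtr1 spread from -0.05 to 0.80.

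Paralogues of the genes that were higher divided by family. Beside Ccn1 and Ccn2, whose differences were known when they were chosen, the CCN family had 3 measured genes. The family list, too, was drawn up with earlier results of these data known, so the share that follows is only a description. In 3 of 3 both obstructed arrays lay above both sham arrays, as in 17.6% of all genes, with a median difference of 1.35. Ccn3 measured 7.96 and 8.08 in sham and 9.63 and 9.08 in obstructed arrays, a difference of 1.34 (SE 0.25, limma adjusted p = 0.232, by Benjamini-Hochberg over all genes). Ccn4 measured 6.88 and 7.17 in sham and 8.47 and 8.29 in obstructed arrays, a difference of 1.35 (SE 0.20, limma adjusted p = 0.149), and its dimmer probe differed by 0.38. Ccn5, a family member that lacks the carboxy-terminal domain of the others, measured 8.43 and 8.94 in sham and 11.48 and 9.71 in obstructed arrays, a difference of 1.91 (SE 0.56, limma adjusted p = 0.482). For Ccn5 the obstructed arrays differed from each other by more than obstructed replicate 2 did from the sham mean. None of Ccn3, Ccn4 and Ccn5 passed over all genes.

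The muscle ankyrin repeat family, by contrast, had 1 gene with a large difference, Ankrd1. Ankrd2, its skeletal muscle relative, lay between 5.25 and 5.40 in all 4 arrays, below the median of all probes, and differed by -0.07 (limma adjusted p = 0.918). Ankrd23 measured 5.92 and 5.72 in sham and 5.69 and 5.68 in obstructed arrays, a difference of -0.14 (limma adjusted p = 0.839). Both relatives were therefore dim on these arrays, 3 or 4 of their 4 values lying below the median of all probes.

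**Figure D3:**
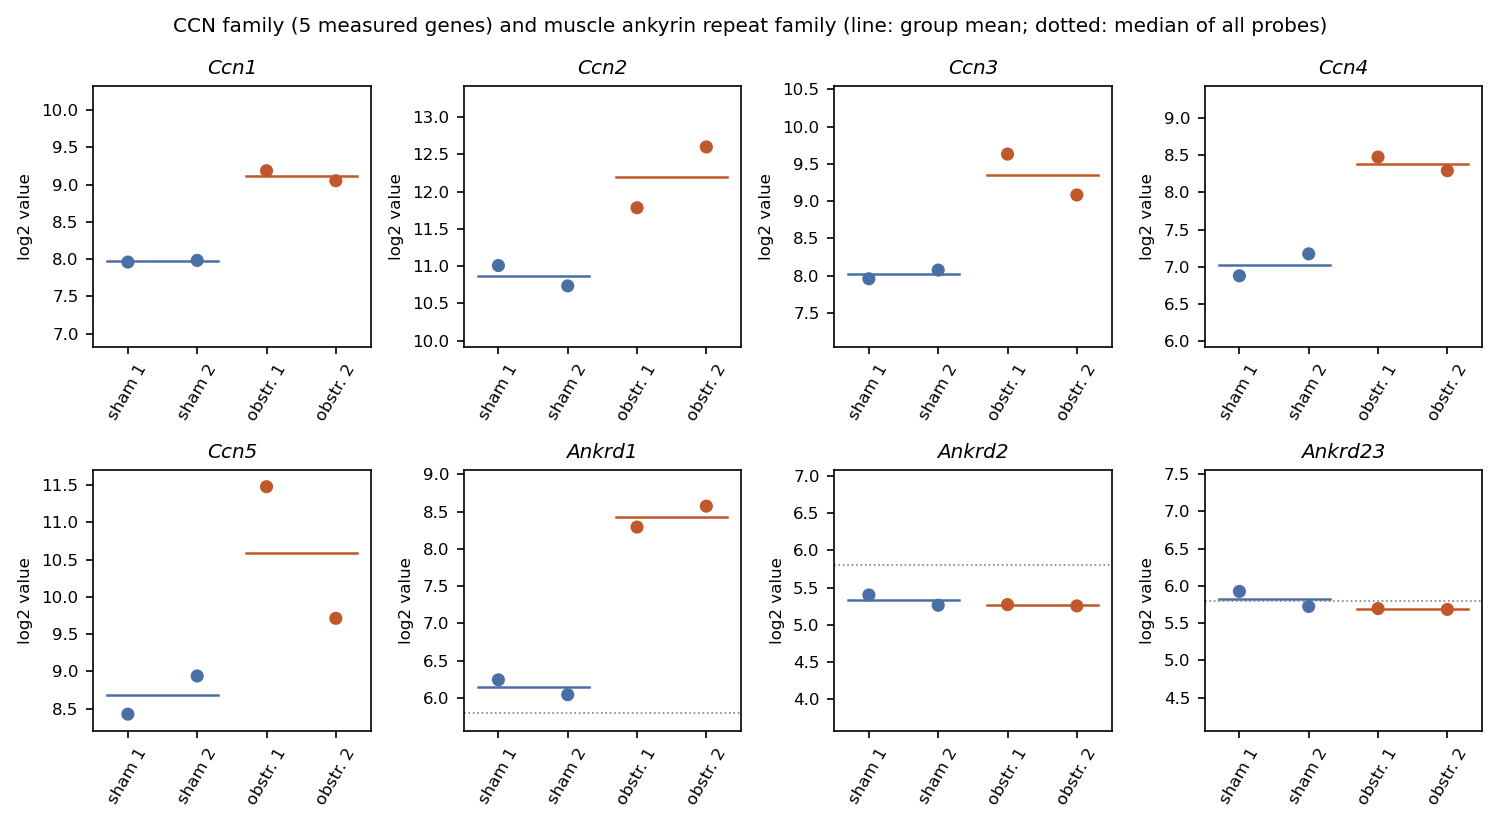
Log2 value (y axis) of the 5 measured CCN genes and the 3 muscle ankyrin repeat genes in each array, sham in blue and obstructed in orange, with lines at the group means and panels spanning 3.5 log2 units. Both obstructed arrays lie above both sham arrays in all 5 CCN panels, whereas Ankrd2 and Ankrd23 stay at or near the median of all probes, the dotted line at 5.80.

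Among the relatives of Axl, Tyro3 measured 7.49 and 7.19 in sham and 7.75 and 7.78 in obstructed arrays, a difference of 0.42 (limma adjusted p = 0.642), with a dimmer probe at 0.04. Mertk differed by 0.14, with its other probe at -0.27. The ligands Gas6 and Pros1 differed by 0.27 and -0.32, and in both of them the groups overlapped. Gas6 had its highest value in obstructed replicate 1, at 11.68, as Axl did.

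Of the TEAD genes other than Tead1, Tead2 measured 8.84 and 8.62 in sham and 8.96 and 9.14 in obstructed arrays, a difference of 0.32 (SE 0.21, limma adjusted p = 0.739). Tead3 differed by -0.12, and Tead4, with 3 of 4 values below the median of all probes, by -0.18. The other probes of Tead4 differed by -0.07. Vgll4, which competes with YAP for TEAD, measured 8.13 and 8.02 in sham and 8.57 and 8.27 in obstructed arrays, a difference of 0.34 (limma adjusted p = 0.724). Tead2 and Vgll4 were thus slightly higher in both obstructed arrays, by less than 2-fold and without passing the test.

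Over the 10 pathway lists, 82 of 103 listed genes other than the 10 were measured. Of these, 0 passed in either direction by limma (Benjamini-Hochberg adjusted p below 0.05 over all genes), where 0.0521% of all genes passed. At an unadjusted p below 0.05, 7 were higher and 5 lower, where 3.05% and 5.09% of all genes were. Their median difference was -0.05. Without obstructed replicate 1 there were 18 calls among them, 8 higher and 10 lower, in a fit that called 1299 genes, 8.45% of all. Without obstructed replicate 2 there were 6, all higher, in a fit that called 323 genes, 2.1% of all.

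In the list of conserved YAP and TEAD targets, the means of 6 of the 13 other genes were higher and those of 7 lower, with a median of -0.03. Nuak2, a kinase related to AMPK, measured 7.38 and 7.27 in sham and 8.24 and 7.85 in obstructed arrays, a difference of 0.72 (SE 0.21, limma adjusted p = 0.467). Nt5e, the enzyme that makes extracellular adenosine, measured 9.05 and 9.08 in sham and 8.38 and 7.87 in obstructed arrays, a difference of -0.94 (SE 0.24, limma adjusted p = 0.420). Tgfb2 differed by 0.75, with sham arrays at 8.09 and 9.14 that overlapped the obstructed ones, and its other probe differed by 0.13. Asap1, an Arf GTPase-activating protein, differed by -0.51 and its other probe by -0.02. Higher and lower genes were thus about equally many beside Ankrd1, Ccn1 and Ccn2.

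Among 11 other reported targets, 5 had a higher and 6 a lower mean. Col8a1, a short-chain collagen, measured 9.02 and 9.10 in sham and 10.57 and 10.24 in obstructed arrays, a difference of 1.35 (limma adjusted p = 0.173), with another probe at 1.92. Edn1, the precursor of the vasoconstrictor endothelin-1, measured 6.81 and 6.94 in sham and 7.65 and 8.44 in obstructed arrays, a difference of 1.17 (limma adjusted p = 0.377). Thbs1, the matricellular thrombospondin, differed by 0.45, with another probe at 0.24. The cell cycle gene Ccnd1 differed by -0.32, and its other probes by -0.17, 0.03 and 0.13. Col8a1, Edn1 and Thbs1 were named for the 3 smallest p of this list in the same comparison, so their separation is only a description. Of the 11 genes, 3 had both obstructed arrays above both sham arrays, as had 17.6% of all genes. In 1 gene both lay below, as in 21.6% of all genes.

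Hippo kinases and scaffolds showed no common direction, 6 of 10 genes other than Lats2 having a higher mean, with a median of 0.12. Wwc2, a scaffold related to KIBRA, measured 9.36 and 9.77 in sham and 9.94 and 10.53 in obstructed arrays, a difference of 0.67 (limma adjusted p = 0.635), with a dimmer probe at 0.42. Mob1a, a LATS activator, differed by 0.50 and its dimmer probe by -0.13, and Sav1, a scaffold of the upstream kinases, by -0.42. Of 6 junction and LIM adaptors other than Amotl2 and Ajuba, Tjp1 had the largest lower difference, -0.21, and Amot the largest higher one, 0.10, the latter being below the median of all probes in all 4 arrays. The other probes of Amot, dim as well, differed by -0.35 and 0.10. Ctnna1 differed by -0.18, with overlap between sham and obstructed arrays. In these groups the largest higher difference was that of Wwc2, below 2-fold.

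**Figure D4:**
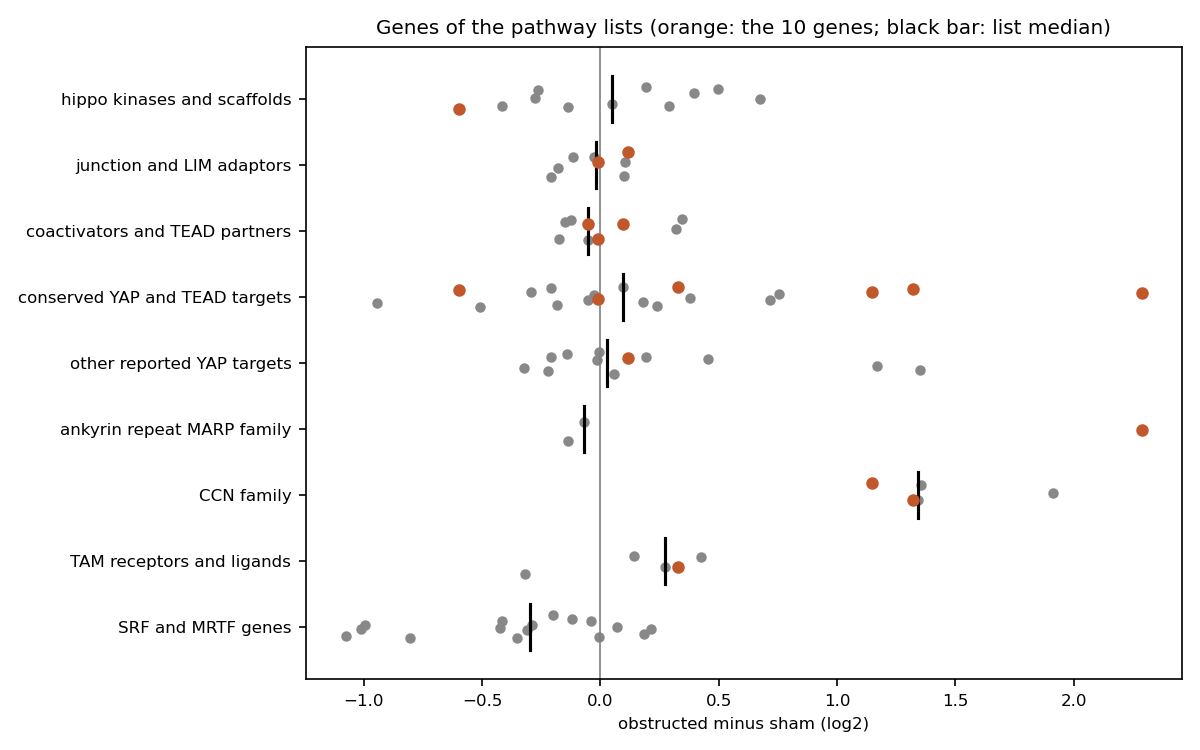
Obstructed minus sham difference in log2 units (x axis) of each measured gene in the pathway lists shown (rows), the 10 genes in orange, other genes in grey and the list median as a black bar. A gene on more than 1 list is drawn in each. The CCN family is the row whose genes all lie above 1, with a median of 1.34, and the other medians lie between -0.30 and 0.27.

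The composition of the samples moved with the groups. Markers of male accessory glands were higher in obstructed arrays for 11 of 11 genes, 0 of which were below the all-probe median throughout. Their summed linear value was 8159 and 596 in sham replicates 1 and 2 and 24967 and 273576 in obstructed replicates 1 and 2. Smooth muscle markers, 8 of 8 measured, summed to 91394 to 110184 in sham and 62958 to 91589 in obstructed arrays, and fibroblast markers, 8 of 8, to 59785 to 63898 and 44568 to 62740. The mean was lower for 6 of 8 smooth muscle and 6 of 8 fibroblast genes, with list medians of -0.50 and -0.29. In each list 4 genes were lower without overlap, where 21.6% of all genes were. Urothelial markers, 7 of 8, summed to 52791 to 59886 in sham and 59190 to 59702 in obstructed arrays, so that bladder muscle and lining markers were bright in all 4 arrays. In bulk RNA, fewer cells of a type and less RNA per cell cannot be told apart. In obstructed replicates 1 and 2 in turn, Ankrd1 differed by 2.15 and 2.43, Ccn2 by 0.91 and 1.73 and Lats2 by -0.44 and -0.75, the larger difference being in the array with more gland RNA. Ccn1, at 1.21 and 1.08, had the smaller difference there. In sham replicates 1 and 2 in turn, the first having more gland RNA, Ankrd1 measured 6.24 and 6.04 and Ccn2 11.01 and 10.73. Lats2 measured 6.60 and 6.82 and Ccn1 7.96 and 7.98 in the same arrays. The part of gland RNA in these differences was not tested.

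Ankrd1 is known as a striated muscle gene, and striated muscle markers were lower. Of 11 listed skeletal and heart muscle markers 8 were measured and 1 was below the all-probe median throughout. All 8 had a lower mean in obstructed arrays, 7 without overlap, where 21.6% of all genes were lower without overlap. The summed linear value of these markers was 14181 to 16092 in sham and 1755 to 3393 in obstructed arrays. The part of striated muscle RNA in the Ankrd1 values was not tested. Adipocyte markers had a lower mean for 5 of 6 genes, 4 without overlap, and summed to 1099 to 2188 in sham and 306 to 333 in obstructed arrays. Means were also lower for 3 of 4 macrophage, 3 of 3 nerve and Schwann cell, 5 of 5 mesothelial and 4 of 4 cell division markers. The same held for 5 of 6 endothelial, 2 of 2 red blood cell and 3 of 6 other leukocyte markers. In obstructed replicate 2 the nerve and mesothelial sums, 2681 and 5447, were not below those of sham replicate 2, 2655 and 5418. The part of these cells in the differences was not tested.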

How the data were processed

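Total RNA of the bladders was turned into biotin cRNA for Illumina arrays, per the labels' protocols. The authors deposited 1 table of log2 values for 46657 probes and 4 arrays, already on a common distribution (the sorted columns differ by at most 0.0252). That the scale is log2 was read from the values, 4.14 to 15.63, and software and normalization were not given in the sources used here. The platform annotation gave 1 symbol for 22380 probes and none for 24277, and the brightest probe stood for each of 15366 genes. The values were fitted as deposited with limma 3.58.1 in R 4.3.3 (lmFit, eBayes with trend, 6.04 degrees of freedom per gene), with Benjamini-Hochberg adjustment over all genes and a threshold of 0.05. Detection p-values were not used here, and the median of all probes, 5.80, served as a mark for dim probes. The precision is limited by 2 arrays a group.

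The result of 1 pathway list is not reported here on its own. The 10 genes and all gene lists were chosen with earlier results of these data known. Named were the 10 genes with all probes, every measured paralogue, and from each other list each called gene, the 3 smallest p and the largest difference each way. Likeness was the Euclidean distance over the 4 arrays, centred on the sham mean. Alternatives covered normalization, probe choice, dim genes, the variance model, the replicate number as a block and each array left out. Replicate numbers only follow the order of the sample list, as the labels give none, so they pair nothing (same-numbered arrays did not deviate together, r = -0.0165).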

Additional observations from a re-analysis of the deposited data

How the results depend on the processing

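Several settings (array weights, the block, centring) leave the differences of the 10 genes the same by construction. Among the others, 3 differences moved by more than the spread between replicates, Ccn1 to 1.03 and Wwtr1 to 0.28 with all probes averaged and Tead1 to 0.00 with the floor, and 7 changed sign, all of genes close to level (Amotl2, Ajuba, Yap1 and Wwtr1). Of the 8 genes called by limma over all genes, the number became 3 with dim genes left out, 0 with a floor of 50, 17 with a robust variance trend, 1 with the replicate block, whose numbers pair nothing, and 23 at an adjusted p below 0.1. It ranged from 0 to 1299 with 1 array left out, 0 without either sham array, 1299 without obstructed replicate 1 and 323 without obstructed replicate 2. The remaining array then takes its spread from the other group. The number of the 10 genes at least 2-fold higher stayed at 3, or 2 without obstructed replicate 2, where Ccn2 was at 0.91. The number of other pathway genes called was 0 in every setting except with an array left out, where it ranged from 0 to 18. The cause of these shifts was not tested. With 2 arrays a group, and dim probes for Tead1, Ajuba and Ankrd2, small differences could not be resolved.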

Other observations

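The serum response factor SRF, its coactivators and their targets form another stretch-sensitive program of smooth muscle. The listed genes of this program mostly had a lower mean in obstructed bladders. Of 16 measured genes 13 had a lower and 3 a higher mean. In 5 both obstructed arrays lay below both sham arrays, as in 21.6% of all genes, and 0 passed by limma over all genes, with 4 lower at an unadjusted p below 0.05, as were 5.09% of all genes. Srf itself measured 11.59 and 11.63 in sham and 11.03 and 10.58 in obstructed arrays, a difference of -0.80 (limma adjusted p = 0.440), and its other probe gave -0.66. Fhl2, a LIM cofactor, differed by -1.08 and Cnn1, the smooth muscle calponin, by -0.99. Zyx had the largest higher difference of the list, 0.21, with groups that overlapped. In obstructed replicate 1 the median of the list stood at 0.08 and in replicate 2 at -0.59, and the smooth muscle markers summed to 91589 and 62958 in these arrays, against 91394 and 110184 in sham. Acta2, Cnn1 and Tagln are on both the SRF list and the smooth muscle list, so these values are not independent. The part of smooth muscle content in the lower values was not tested.

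Likeness was ranked over 10571 genes brighter than the median of all probes, by distance in log2 units. The genes nearest to Ankrd1 were Grem1, a BMP antagonist (0.521), Mmp12, the macrophage elastase (0.810), Atp7a (0.901) and Sprr2f (0.981). Grem1 measured 5.66 and 5.83 in sham, near the median of all probes, 5.80, and 8.16 and 7.81 in obstructed arrays. Nearest to Ccn1 were Slc25a48 (0.101), Hs6st2 (0.165), Gbf1 (0.253) and Kif3a (0.272), and nearest to Ccn2 were Nfil3 (0.0915), Edn1 (0.353), Selenos (0.363) and Gipc2 (0.424). Ccn1 and Ccn2 lay 0.745 apart, and Ankrd1 lay 1.65 from Ccn1 and 1.42 from Ccn2. With 4 arrays in 2 groups the ranking is a description and carries no test.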
